A study of Mus musculus
Rattus norvegicus and Mus musculus and Rattus norvegicus with 95 samples.

Results

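The 24 single AdESC cells of this series are described here, by how far each gene differed from cell to cell and by whether those differences followed the cell line. The cells were chosen by their labels alone, as all single-cell libraries named for undifferentiated AdESCs: 6 cells of line MR1-1, 8 of MR2-1, 4 of RM1-1 and 6 of RM2-1. They are 24 of 87 single cells and 24 of 95 samples in all. AdESCs, allodiploid embryonic stem cells, were made by fusing haploid mouse with haploid rat stem cells, so each cell carries a single genome copy from either species. Every one of the 4 lines carries both genomes, and the labels name no transgene or treatment. A line is a single culture lineage, so its cells are repeated looks at 1 sample and not replicates. The 63 other cells, used only for contrast, were drawn from floating clumps in which stem cells differentiate, called embryoid bodies or EB (MR2-1, RM1-1), fibroblasts (MR1-1), neurons (RM1-1), lung (RM2-1) and somatic testis cells (RM1-1, RM2-1). The fibroblasts, neurons and RM1-1 testis cells were taken from mouse chimaeras, and the lung and RM2-1 testis cells from rat chimaeras. Bulk libraries of the same 4 AdESC lines, 1 each, gave an independent reading of line differences. The labels call the AdESCs, single cells and bulk alike, G0/G1 cells.

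Mouse embryonic stem cells keep self-renewal through a network of transcription factors around Pou5f1, Sox2 and Nanog, and they are known to fluctuate between substates marked by Nanog and its partners while the housekeeping machinery of translation and splicing is steady. Genes of the cell cycle move with the phase in which a cell is caught, and targets of p53 with DNA damage and stress. Dazl, an RNA-binding protein of germ cells, is expressed patchily in cultured mouse stem cells.

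Values were FPKM, fragments relative to transcript length and sequencing depth, given for 13926 homologues of mouse and rat. Per AdESC cell they summed to between 245843 and 407477, and 4211 to 6246 genes lay at 1 FPKM or more. No 2 of the 24 libraries were identical. Spread is given as the SD of log2(FPKM + 1), a scale that compresses differences at low values, over genes with a mean of 10 FPKM or more in the 24 cells. These were 3676 genes, 26.4% of the table. Just inside this threshold lay Fbxo11 with a mean of 10.0001 FPKM and an SD of 1.38, and just outside it Pop1 with 9.996 FPKM and an SD of 1.43. Each cell's mean Spearman correlation with the other 23 had a median of 0.634 and a highest value of 0.685. The lowest, 0.460, belonged to an MR2-1 cell, followed by an MR1-1 cell at 0.540 and an RM2-1 cell at 0.555. The MR2-1 and RM2-1 cells stood outside the range of their own lines by Dixon's test, and values without the MR2-1 cell, or without both, stand beside results that they move. The MR1-1 cell was not set apart by that test.

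The cells carried stem cell markers. All 5 measured stem cell markers of 7 listed (Pou5f1, Nanog, Sox2, Esrrb and Tdh) were above 1 FPKM in every cell, and their summed level ran from 99.2 to 1933 FPKM with a median of 937 FPKM. The low end was the MR2-1 cell that stands apart; the lowest sum in the other lines was 672 FPKM. Of 10 feeder fibroblast markers, Col3a1, Lum and Dcn were listed at 0 in all 24 cells, and the summed level ran from 29.2 to 307 FPKM. Only Sparc and Fn1 of the 10 had a mean of 10 FPKM or more, with medians of 60.4 and 38.6 FPKM. The 9 primitive endoderm markers summed to at most 14.4 FPKM, the 5 measured trophoblast markers to at most 41.01 FPKM and the 4 measured neuroectoderm markers to at most 24.6 FPKM, with Sox17, Hand1, Pax6, Pax3 and Zic1 listed at 0 throughout. Nanog, the self-renewal factor, ranged in MR1-1 cells from 352 to 1445 FPKM with a median of 561, and in MR2-1 cells from 7.46 to 816 with a median of 403. In RM1-1 cells Nanog was 344, 404, 407 and 626 FPKM, and in RM2-1 cells it ranged from 285 to 770 with a median of 353. The lines overlapped, and outside the MR2-1 cell that stands apart no cell was below 206 FPKM. Pou5f1, the other core factor, lay between 27.97 and 154 FPKM in all 24 cells with a median of 74.4. The MR2-1 cell that stands apart had 74.1 FPKM of it.

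That cell kept Pou5f1, but other stem cell genes were far below those of the other 23 cells. Tdh, the threonine dehydrogenase of mouse stem cells, was at 4.52 FPKM against at least 148 FPKM elsewhere. Dnmt3l, a cofactor of DNA methylation, was at 1.55 FPKM against 77.8 to 406 FPKM, and Id3, a BMP target, at 0.221 FPKM against 51.1 to 800.4 FPKM. Apex1, a DNA repair endonuclease, stood at 0.148 FPKM against 74.7 to 382 FPKM. Other genes were high in the same cell. Gadd45a was at 294 FPKM against at most 17.9 FPKM in the others, Plk2 at 360 FPKM against at most 66.4 FPKM, and Mdm2, the p53 inhibitor that p53 itself induces, at 567.7 FPKM against at most 457.5 FPKM in the others. Its summed fibroblast markers, 108 FPKM, were close to the median of 104 FPKM over the 24 cells. In the RM2-1 cell that stands apart, Rfesd was at 161 FPKM and Dalrd3 at 125.1 FPKM, against medians of 0.0765 and 0.134 FPKM in the others, and Nr0b1 was at 177 FPKM. Tceal8, Enc1, Kif22, Prc1 and Lefty1 were each below 1 FPKM in it, while Nanog was the highest of its line. That cell had the fewest genes at 1 FPKM or more, 4211. The part of RNA quality in either cell was not tested.

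Cell-to-cell spread was wide and fell steeply with level. The median SD over the 3676 genes was 1.33, with quartiles of 0.89 and 1.73. It was 1.65 for the 1797 genes at mean levels from 10 to 30 FPKM, 1.15 for 1237 genes from 30 to 100, 0.69 for 453 genes from 100 to 300, and 0.47 for the 189 genes above that. An SD of 2 or more was seen in 345 genes (9.39%) and one below 0.5 in 189 genes (5.14%). 1786 genes were at 1 FPKM or more in every cell, and the other 1890 dropped below it in at least 1 cell. How much of an SD belongs to capture and amplification and how much to the cells was not tested.

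**Figure D1:**
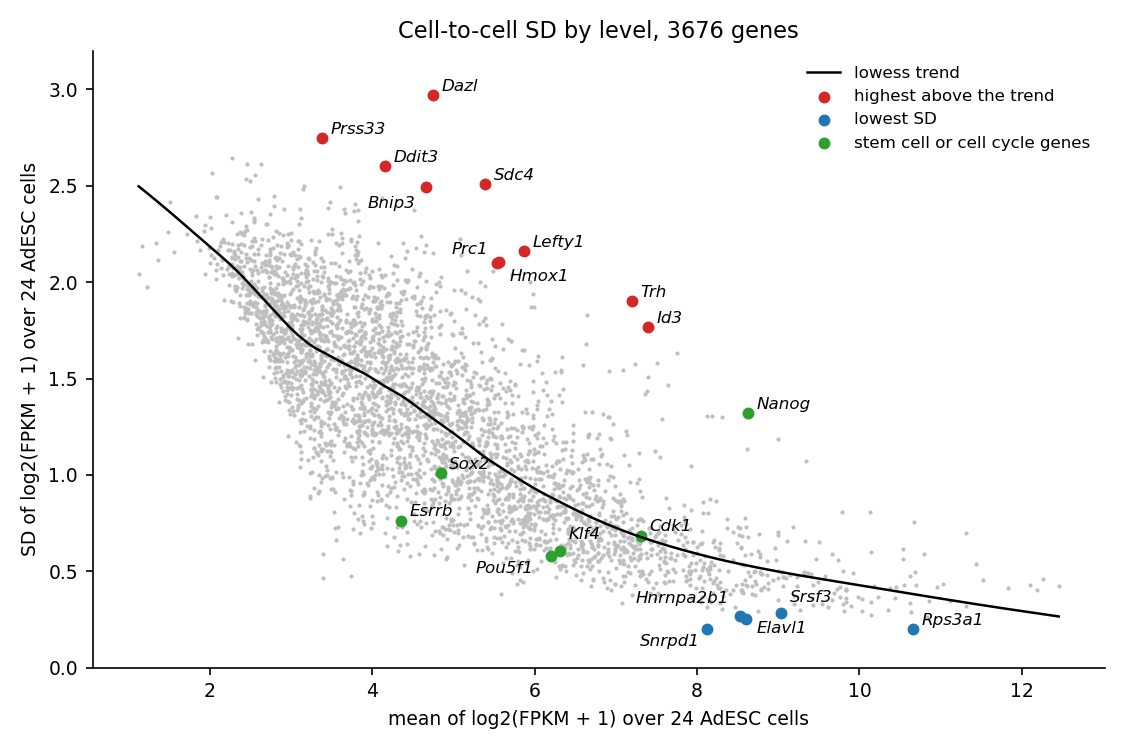
SD of log2(FPKM + 1) over the 24 AdESC cells against the mean of log2(FPKM + 1), with a grey point per gene for 3676 genes and the lowess trend as a black line. Dazl stands highest with an SD of 2.97, and Snrpd1 and Rps3a1 lowest with 0.20 each; Nanog lies above the trend with an SD of 1.32, which is 0.61 without 1 MR2-1 cell, and Pou5f1 and Esrrb lie below it.

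The steadiest genes were those of the ribosome, the spliceosome and RNA handling. The 12 genes of lowest SD, from 0.20 to 0.30, included Rps3a1, Snrpd1, Elavl1, Rpl4, Hnrnpa2b1, Rps3, Srsf3, Psmb1, Rpl27 and Btf3. Of these 10, 4 are ribosomal proteins and 3 (Snrpd1, Hnrnpa2b1, Srsf3) act in splicing. Snrpd1, a core protein of the spliceosomal snRNPs, lay between 252 and 356 FPKM in MR1-1 cells (median 280.1) and between 219 and 362 FPKM in MR2-1 cells (median 261). It was 231, 280.04, 282 and 297 FPKM in RM1-1 cells, and between 246 and 318 FPKM in RM2-1 cells with a median of 283. All 4 lines covered the same narrow band. Rps3a1, of the small ribosomal subunit, ran from 1113 to 1999.8 FPKM, and Elavl1, an RNA-stabilising protein, from 268 to 515 FPKM. At its level Snrpd1 stood 0.38 below the trend, further than the other 11.

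All 12 of the steadiest genes stayed among the 100 steadiest without the MR2-1 cell, without both cells that stand apart and without any line in turn. The first 12 places were less fixed. Of the 12 genes, 7 kept one without the MR2-1 cell, 6 without both cells and 5 to 11 with each line left out. After upper quartile scaling 7 of 12 kept one, and the SDs of Rps3a1 and Snrpd1 rose from 0.20 to 0.34. Among the 100 genes of lowest SD, 33 were ribosomal protein genes, of 44 such genes at the mean filter, which are 1.197% of all genes there. The same 100 held 8 of 14 translation factors, 7 of 25 respiratory chain genes, 7 of 19 splicing genes and 4 of 16 proteasome genes. These 4 lists are 0.38%, 0.68%, 0.52% and 0.44% of all genes at the filter. The 100 genes of highest SD held no member of the 5 lists, but at these shares few would be expected in any 100. Median SDs were 0.38 for ribosomal proteins, 0.43 for translation factors, 0.47 for the respiratory chain, 0.50 for splicing and 0.57 for the proteasome, beside 1.33 for all genes. Without the MR2-1 cell the median of translation factors was 0.38 and that of all genes 1.28. Read against the trend of SD on level, ribosomal proteins lay 0.07 below it in the median, with 12 of 44 above it, and splicing genes 0.26 below it, with 3 of 19 above. Translation factors lay 0.07 below it (4 of 14 above), the respiratory chain 0.10 below it (5 of 25) and the proteasome 0.02 below it (6 of 16). Of all 3676 genes, 1756 lay above it, and their median was 0.01 below it. Rpl39l, a testis-rich copy of Rpl39, was the most variable ribosomal protein gene with an SD of 1.68; reads of such copies may be split uncertainly.

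Dazl had the highest SD over the 24 cells and lay furthest above the trend. It did not have the highest SD with a pseudocount of 0.1, at 3.71 against 4.06 for Anxa1, or within lines, at 2.72 against 2.79 for Prss33. Prss33, 3830417A13Rik, Plk2 and Ddit3 were above Dazl in both of these settings. In MR1-1 cells Dazl ranged from 12.5 to 483 FPKM with a median of 153, and in MR2-1 cells from 0 to 288 FPKM with a median of 33.8. In RM1-1 cells it was 0.0695, 1.63, 22.6 and 75.8 FPKM, and in RM2-1 cells it ran from 0.36 to 258 FPKM with a median of 8.10. The lines overlapped, but 5 of 6 MR1-1 and 3 of 8 MR2-1 cells had 100 FPKM or more, against 0 of 4 RM1-1 and 1 of 6 RM2-1 cells. Below 2 FPKM lay 6 cells, 2 each of MR2-1, RM1-1 and RM2-1. Its SD was 2.97 over 24 cells and 3.04 without the MR2-1 cell that stands apart. In the 63 differentiated cells Dazl averaged 0.70 FPKM. Mouse Dazl lies on chromosome 17, 50279393 to 50293620 (mm10).

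**Figure D2:**
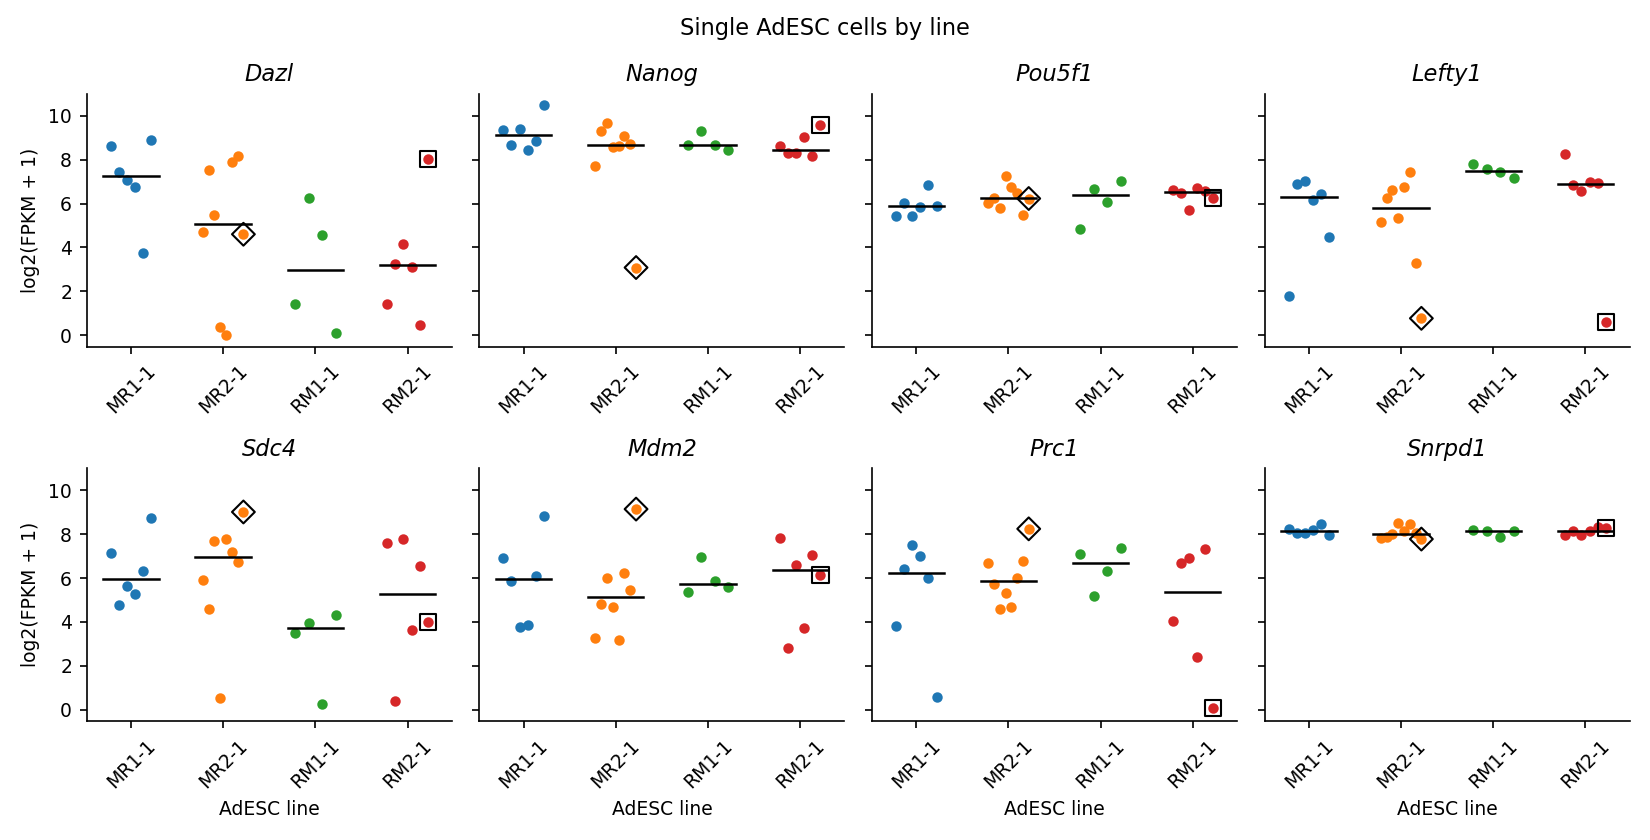
log2(FPKM + 1) of 8 genes in each AdESC cell by line, with a point per cell and a bar at the median of the line. The diamond is the MR2-1 cell and the square the RM2-1 cell that stand apart; Dazl spans 0 to 483 FPKM, while every cell has 219 to 362 FPKM of Snrpd1.

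After Dazl the genes furthest above the trend were Sdc4, Trh, Lefty1, Bnip3, Ddit3, Prss33, Id3, Hmox1, Enc1, Prc1 and Nqo1. Prss33, a serine protease, was below 1 FPKM in 9 cells and reached 218 FPKM in the RM2-1 cell that stands apart. Sdc4, a heparan sulphate proteoglycan of the cell surface, lay between 26.7 and 429 FPKM in MR1-1 cells with a median of 63.6, and between 0.455 and 518 FPKM in MR2-1 cells with a median of 125. It was 0.19, 10.4, 14.6 and 19.3 FPKM in RM1-1 cells and 0.294 to 223 FPKM in RM2-1 cells with a median of 54.7. All 4 RM1-1 cells were below every MR1-1 cell, and they overlapped with the low cells of MR2-1 and RM2-1. Trh, the precursor of thyrotropin-releasing hormone, ran from 4.14 to 1895 FPKM over all cells with a median of 171. No line had it uniformly high or low. Lefty1, a secreted inhibitor of Nodal, was at 144, 170.2, 190 and 223 FPKM in RM1-1 cells, so all 4 were high. The lowest cell had 2.44 FPKM in MR1-1 (median 79.1), 0.697 in MR2-1 (median 58.02) and 0.493 in RM2-1 (median 118).

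Ddit3, the transcription factor CHOP of the stress response, was listed at 0 in 5 cells and reached 146.3 FPKM. Hmox1, which breaks down haem, and Nqo1, a quinone reductase, ran from 0 to 341 FPKM and from 0.246 to 546 FPKM. Bnip3, of mitophagy and cell death, ran from 0 to 237 FPKM. Id3 owed its place to 1 cell: its SD was 1.77 over 24 cells and 0.93 without the MR2-1 cell. Of the 12 genes furthest above the trend, 9 were among the first 12 without that cell, and 11 among the first 100. Those that left the first 12 were Id3, Prc1 and Nqo1.

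Among the 12 genes of highest SD were also 3830417A13Rik, Plk2, Anxa1, Lgals9, Btg2, Txnip, Spats2 and Mad2l1bp, with SDs from 2.50 to 2.64. Each was below 1 FPKM in 9 to 14 of the 24 cells and reached between 70.04 and 432 FPKM in its highest cell. Plk2 and Btg2, both p53 targets, and Txnip, a thioredoxin-binding protein, were at 360, 104 and 155 FPKM in the MR2-1 cell that stands apart. Without it, 7 of the 12 genes of highest SD kept a place among the first 12 and all 12 among the first 100.

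Pluripotency factors split into steady and patchy members. Of 28 listed, 20 were analysed and 15 passed the mean filter, with a median SD of 1.31, or 0.91 without the MR2-1 cell that stands apart, beside 1.33 and 1.28 for all genes. Pou5f1, Tfcp2l1 and Klf4 had SDs of 0.58, 0.58 and 0.60, and Esrrb 0.76. Esrrb ran from 6.27 to 55.5 FPKM, which placed it 0.65 below the trend. Nr0b1 (SD 2.32), Fgf4 (2.01) and Tcl1 (1.70) were at the other end. Nr0b1, an orphan nuclear receptor, was below 1 FPKM in 8 cells and reached 177 FPKM. Fgf4, the growth factor that primes stem cells for differentiation, ran from 0 to 123 FPKM. Nanog and Tdh, with SDs of 1.32 and 1.31, had 0.61 and 0.52 without the MR2-1 cell. The median correlation between pairs of pluripotency factors over the cells was 0.06, beside 0.03 for all gene pairs.

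The 9 germline genes at the mean filter, of 15 analysed, had a median SD of 2.06 (1.86 without the MR2-1 cell). Above the trend lay 7 of these 9, beside 1756 of all 3676 genes. Ddx4, the germ cell RNA helicase, ran from 0 to 86.7 FPKM and Tex19.2 from 0.163 to 388 FPKM. Tex19.1, which represses retrotransposons, was steadier, at 17.4 to 281 FPKM with an SD of 0.95. Dazl and Ddx4 correlated over the 24 cells at 0.19. Genes of the Nodal pathway and of the BMP response were patchy too. Lefty1, Lefty2 and Nodal had SDs of 2.16 to 2.20, whereas Gdf3, a Nodal-related ligand, had 0.71. Bmp4, Id2 and Id3 had SDs of 2.28, 2.21 and 1.77, but Id3 had 0.93 without the MR2-1 cell. At the mean filter were 4 of 5 analysed Nodal genes and 3 of 8 BMP genes, with median SDs of 2.16 and 2.21. Without both cells that stand apart, these medians were 1.74 and 2.11, and Lefty1 had an SD of 1.52.

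Of 18 heat shock and stress genes listed, 15 passed the mean filter, with a median SD of 0.75. Above the trend lay 10 of 15, beside 1756 of all 3676 genes. The lowest SDs of the list were those of the chaperones Hsp90aa1, Hspa8 and Hsp90ab1 (0.34, 0.42 and 0.44), and the highest those of Ddit3, Chac1 and Trib3 (2.60, 2.45 and 2.29). Chac1 and Trib3 are induced together with Ddit3 in the stress response. Over the cells Ddit3 correlated with Trib3 at 0.45 (0.37 without the MR2-1 cell) and with Chac1 at 0.16 (0.00 without it). Mt1 and Mt2, which bind zinc, were at 43.8 and 27.5 FPKM in the MR2-1 cell that stands apart, against medians of 597 and 732 FPKM over all cells. Only 5 imprinted genes of 19 analysed passed the filter (Snurf, Snrpn, Ube3a, Cd81 and Tssc4), with SDs from 0.79 to 2.03.

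Genes of mitosis moved together from cell to cell. All 19 analysed G2/M genes of 22 listed passed the mean filter, with a median SD of 1.08, and 7 of them were at 10 FPKM or more in every cell. Cdk1, the mitotic kinase, ran from 56.8 to 395 FPKM, Cdc20 from 64.6 to 290.4 FPKM and Ube2c from 82.9 to 766 FPKM. Their summed level was 885 to 2488 FPKM in MR1-1 cells, 876 to 2895 in MR2-1, 1444 to 3939 in RM1-1 and 761 to 3187 in RM2-1 cells, so each line held cells both low and high. After centring each gene on its line, 171 of 171 pairs of these genes correlated above 0 over the 24 cells, beside 54.1% of all gene pairs. The median Spearman correlation was 0.38, beside 0.03, and 0.39 after correction for the number of genes detected per cell. It was 0.38 without the MR2-1 cell and 0.42 without both cells that stand apart. Cenpf and Tpx2 were the closest pair at 0.88, followed by Aurkb and Plk1 at 0.75. The mean level of the G2/M genes ran against that of the G1/S genes at -0.49 (-0.42 without the MR2-1 cell). The labels place these cells in G0/G1; 9 of 10 measured markers of dividing cells were at 1 FPKM or more in all 24, and each of the 10 had a mean of 10 FPKM or more. These and the other correlations below are descriptions over cells that share their lines, with no test.

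Ribosomal proteins also moved together, and p53 targets did so more loosely. The 44 ribosomal protein genes had a median pairwise correlation of 0.50, with 96.9% of pairs above 0 (0.45 without the MR2-1 cell), and their mean level followed that of the translation factors at 0.83. The 7 p53 targets at the filter, of 12 analysed, had a median of 0.35 (0.29 without the MR2-1 cell and 0.25 without both). Over 24 cells 20 of 21 pairs were above 0 and 1 reached 0.6, against 271 of 946 pairs of ribosomal proteins. Without the MR2-1 cell Trp53inp1 was below 0 with Bax (-0.09) and Aen (-0.03), as was Sesn2 with Aen (-0.02). All 7 p53 targets lay above the trend of SD on level, beside 1756 of all 3676 genes. Their median SD was 1.93, or 1.79 without the MR2-1 cell. Mdm2 ran from 12.6 to 458 FPKM in MR1-1 cells with a median of 62.5, and from 7.95 to 567.7 FPKM in MR2-1 cells with a median of 35.5. It was 40.3, 47.7, 57.5 and 126 FPKM in RM1-1 cells, and 5.98 to 229.6 FPKM in RM2-1 cells with a median of 82.3. Ccng1, cyclin G1, correlated with Mdm2 at 0.72 (0.65 without the MR2-1 cell), and with Sdc4 at 0.75 (0.69). Cdkn1a, the p21 inhibitor of the cell cycle, correlated with Mdm2 at 0.51 (0.55).

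**Figure D3:**
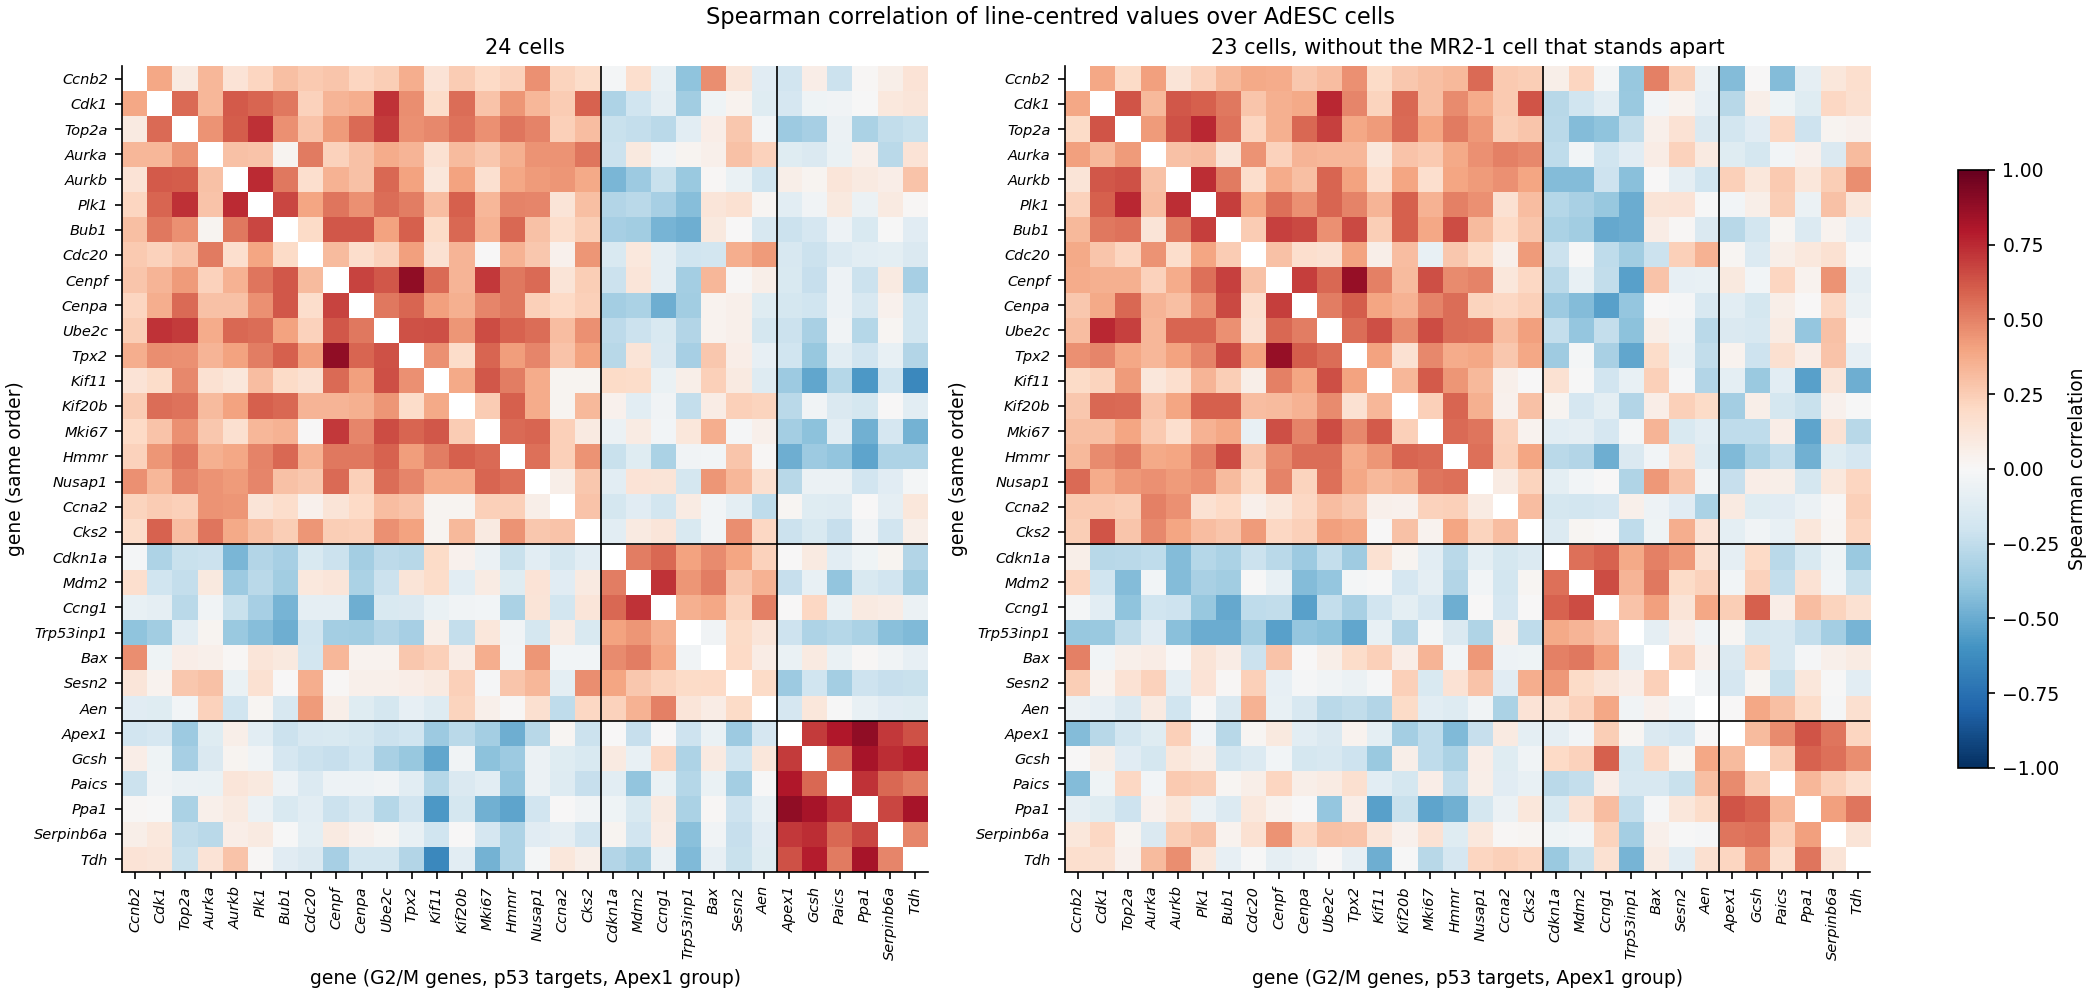
Spearman correlations of line-centred log2(FPKM + 1) over 24 AdESC cells (left) and over 23 cells without the MR2-1 cell that stands apart (right), for 19 G2/M genes, 7 p53 targets and 6 genes of the Apex1 group, with the diagonal blank. The G2/M block has a median of 0.38 in either panel, with Cdc20 and Mki67 lowest at 0.01 (left) and -0.08 (right), while the Apex1 block pales from a median of 0.71 to 0.41.

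Among the 300 genes furthest above the trend, average linkage at a correlation of 0.6 gave as its largest group 6 genes: Apex1, Gcsh, Paics, Ppa1, Serpinb6a and Tdh. Tdh breaks down threonine, Gcsh is a subunit of glycine cleavage, Paics acts in purine synthesis and Ppa1 removes pyrophosphate. Their median correlation was 0.71 over 24 cells and 0.41 without the MR2-1 cell that stands apart, in which all 6 were low. Apex1 and Ppa1, the closest pair among these 300 genes, correlated at 0.88 with that cell and 0.63 without it; Tdh and Gcsh did so at 0.78 and 0.47. Other close pairs changed less without it. Prc1 and Hmmr, both of the mitotic spindle, correlated at 0.80 and 0.82, and Polb and Kat8 at 0.80 and 0.82. Hsdl1 and Vamp8 did so at 0.82 and 0.81, and Nqo1 and Crip1 at 0.79 and 0.75. Without line RM2-1 these pairs were, in order, at 0.68, 0.75, 0.66 and 0.74. They, and the opposed pair that follows, were named for extreme correlations over these same cells, so their size follows in part from the choice. Of all gene pairs, 0.055% reached 0.7. Nanog and Prc1 ran against each other at -0.75 with the cell, -0.76 without it, -0.62 without both cells that stand apart and -0.56 by Pearson's r. Nanog also grouped with Dnmt3l, Gpx2 and Nop16, at a median of 0.69 that became 0.42 without the MR2-1 cell. Dazl was most like Thoc6, of the mRNA export complex, at 0.84 in both cases; with Nanog it correlated at 0.48 (0.55) and with Pou5f1 at -0.47 (-0.48).

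Pooled over the 4 lines, single cells of 1 line were about as alike as cells of different lines. The median correlation of 2 cells was 0.642 within a line (64 pairs) and 0.641 between lines (212 pairs). The most similar cell lay in the same line for 5 of 24 cells. Most of these 5 were MR1-1 cells and the rest MR2-1, though MR1-1 had the lowest within-line median of the 4 lines, 0.604. On average over genes 12.4% of the variance lay between lines, where lines with no difference would hold 13.0% by the number of lines and cells. The quartiles were 5.501% and 17.3%. Within lines, the root mean variance was 1.47 in MR1-1, 1.46 in MR2-1, 1.17 in RM1-1 and 1.45 in RM2-1 cells, and 1.42 pooled. RM1-1, with 4 cells, was the most uniform line, and its pairs of cells correlated at 0.690 in the median, against 0.604 to 0.650 in the others. Its cells also had the most genes at 1 FPKM or more, 5537 in the median against 4826 to 5192 in the other lines; the part of this in its lower spread was not tested.

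**Figure D4:**
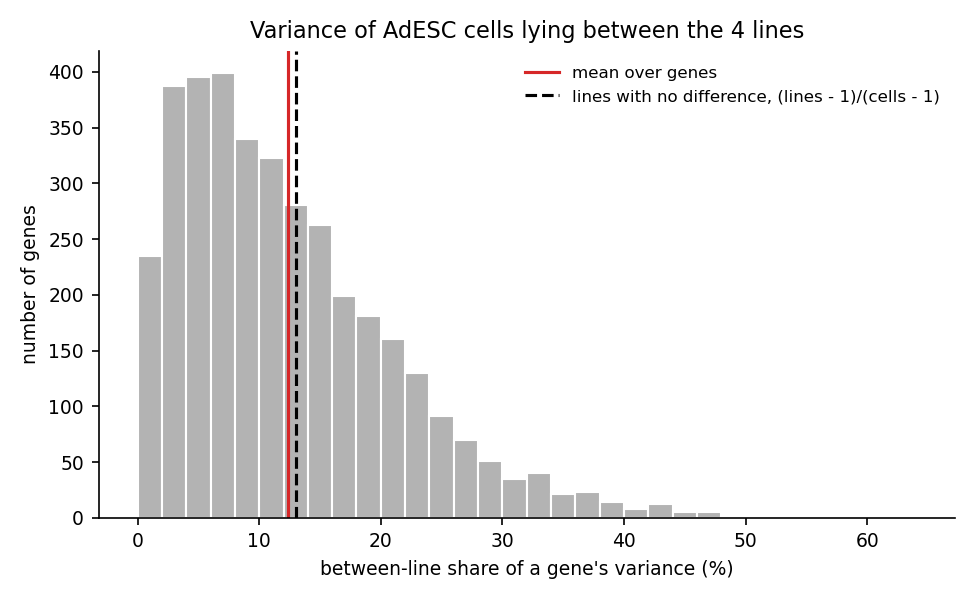
Number of genes by the share of their variance among 24 AdESC cells that lies between the 4 lines, in percent. The mean over 3676 genes, 12.4% (red), lies beside the 13.0% of lines with no difference (dashed); 7 genes reach 50% or more.

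The 10 genes with the highest between-line share were Sec62 (60.8%), 2410076I21Rik, Arih2, Pgm2, Stau1, Dcaf11, Cenpk, Ostc, Ntan1 and Gjb5 (46.9%). These shares chose the genes, so the bulk libraries are the independent reading. Sec62, of the protein channel of the endoplasmic reticulum, was 5.52 to 14.4 FPKM in MR1-1 cells, 18.4 to 62.7 in MR2-1, 15.5 to 23.7 in RM1-1 and 4.22 to 20.2 in RM2-1 cells. MR1-1 and MR2-1 cells did not overlap. In bulk, which was normalised in a separate table, Sec62 was 35.6 FPKM in MR1-1, 19.18 in MR2-1, 24.3 in RM1-1 and 18.8 in RM2-1, so the line lowest in cells was highest in bulk. Across the 10 genes, the highest line was the same in cells and in bulk for 1 gene. It was the same for 22 of the 100 genes of highest share and for 24.8% of all 3676 genes. Over those genes, a line's deviation in the mean of its cells correlated with its deviation in bulk at 0.04 in MR1-1, 0.00 in MR2-1, 0.02 in RM1-1 and 0.07 in RM2-1. Among the 4 bulk libraries, 10 of 24 cells were closest to that of their own line, where a random choice would give 1 in 4.

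Lines named MR and lines named RM were compared over the mean FPKM of the cells of each line, 2 lines against 2, with limma. Of 7383 genes averaging 1 FPKM or more, 0 (0%) passed an adjusted p of 0.05 by limma with Benjamini-Hochberg adjustment, and 366 had an unadjusted p below 0.05. The 5 genes of lowest p were Tmem129, Dazl, Id2, Tktl1 and Trh. Dazl averaged 217 and 100.2 FPKM in the MR lines, against 25.03 and 48.8 FPKM in the RM lines, a log2 difference of 2.04 with a standard error of 0.40 and an adjusted p of 0.415 by limma. It passed the threshold where only the 3670 genes at 10 FPKM or more were tested, at 0.0403, while the lowest adjusted p of any gene under the other filters, scalings and values per line ran from 0.395 to 0.852. In bulk it was 28.1 and 15.7 FPKM in the MR lines and 37.03 and 24.2 FPKM in the RM lines. Id2, an inhibitor of basic helix-loop-helix factors, averaged 13.6 and 13.9 FPKM in MR lines and 46.4 and 96.2 FPKM in RM lines, a log2 difference of -2.20 (standard error 0.44, limma adjusted p 0.415). Tktl1, a transketolase-like enzyme, was at 0.0405 and 0.513 FPKM in MR lines and at 16.5 and 15.4 FPKM in RM lines, with a limma adjusted p of 0.464. No label says whether cells of a line came from separate cultures or days.

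AdESC cells varied less among themselves than differentiated cells did. Over the 3959 genes at 10 FPKM or more on average over the 11 samples, the root mean within-sample variance of log2(FPKM + 1) was 1.43 in MR1-1, 1.43 in MR2-1, 1.17 in RM1-1 and 1.43 in RM2-1 AdESC cells. In differentiated samples it was 1.97 in MR1-1 fibroblasts, 1.87 in RM2-1 lung, 1.66 in MR2-1 EB, 1.63 in RM1-1 neurons, 1.59 in RM1-1 EB, 1.58 in RM1-1 testis and 1.46 in RM2-1 testis cells. All 7 lay above all 4 AdESC samples. The means were 1.36 ± 0.13 for AdESC samples (SD, n = 4) and 1.68 ± 0.18 for differentiated samples (SD, n = 7). The difference of -0.31 had a two-sided exact permutation p of 0.00606 over 330 arrangements, the smallest these samples can give. That test treats the 11 samples as exchangeable, although they come from 4 lines and the lines differ in how many samples they give. With labels permuted only within lines, the mean difference was -0.36, the AdESC sample was lowest in 4 of 4 lines, and the two-sided exact permutation p was 0.0417 over 48 arrangements, again the smallest possible. The pooled difference was -0.32 over the 3034 genes at 10 FPKM or more in both kinds of cell. It was -0.38 without both cells that stand apart, but both are AdESC cells, so that setting trims the AdESC side only. Over those 3034 genes the nearest samples almost met, at 1.411 in MR1-1 AdESC cells and 1.414 in RM2-1 testis cells. Genes at 1 FPKM or more per cell numbered 4826 to 5537 in the median of an AdESC sample and 4263 to 5303 in that of a differentiated sample, and their part in the difference was not tested. Nor was the part of any mix of cell types in EB, lung or testis samples, or of the G0/G1 label of the AdESCs.

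**Figure D5:**
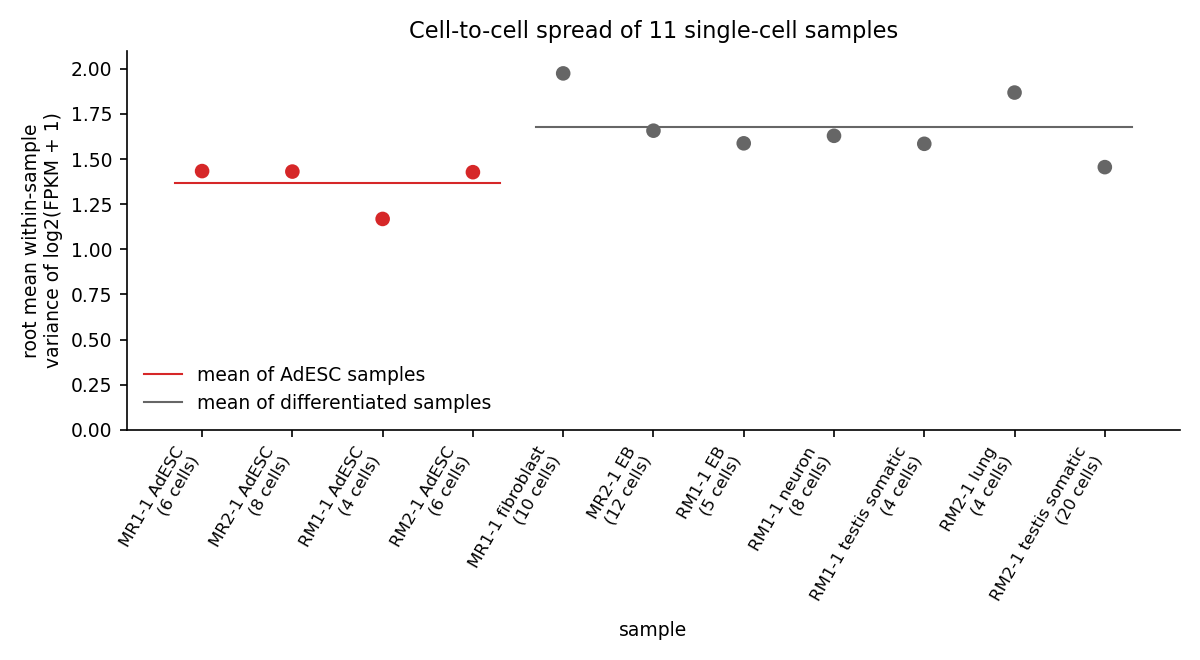
Root mean within-sample variance of log2(FPKM + 1) over 3959 genes, with a point per single-cell sample and a line at the mean of each kind. The 4 AdESC samples (left, red) lie at 1.17 to 1.43 and the 7 differentiated samples (right, grey) at 1.46 to 1.97.

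Which genes were steady carried over between lines and to differentiated cells. The within-line SD of the 14 MR cells and that of the 10 RM cells correlated at 0.69 over genes, and 32 of the 100 steadiest and 16 of the 100 most variable genes were shared. Each set was 100 of 3676 genes. These SDs were not read against the trend, and SD falls with level, so the part of level in what was shared was not tested. The 100 genes steadiest in AdESCs had a median within-sample SD of 0.38 in AdESC cells and 0.51 in differentiated cells, beside 1.33 and 1.61 for all 3676 genes. All 100 were at 10 FPKM or more in differentiated cells too. Of the 100 most variable, 66 were, and their median SD was 2.32 in AdESC cells and 1.93 in differentiated cells. Both sets were chosen by their SD in these AdESC cells, so their SDs there follow from the choice. Only the SDs in differentiated cells are an independent reading, and the step between the 2 kinds of cell is not a result.

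Genes far above the trend had shorter transcripts in the median than genes far below it. The longest coding transcript in the GENCODE M21 mouse annotation, found for 3664 of 3676 genes, was 1945 bases in the median of the 100 genes furthest above the trend and 4391 bases in that of the 100 furthest below, beside 2463 bases for all. Their median GC content was 49.3% and 47.9%, beside 48.99%. Over genes, the distance from the trend correlated with length at -0.24 and with GC content at 0.06. Of the 100 genes above the trend 7 lie on the mouse X chromosome, and 3 of 99 placed genes below it, beside 3.84% of all. The median level of these genes also differed, at 62.9 FPKM above the trend and 16.0 FPKM below it, and the part of level or length in the spread was not tested.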

How the data were processed

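Per the submitters' processing notes, the authors' tools were TopHat2 2.0.10, Cufflinks 2.1.1 and FastQC 0.10.1, and the builds mm10 and rn5; the deposited FPKM values hold 1 number per homologue and cell. How mouse and rat values were joined is not stated. RNA was isolated with Trizol and libraries made with a TruSeq kit, per the labels. Depth is unknown: at most 12.2% of low values shared a common step, so reads were not recovered. The single-cell columns name the line but not the cell, so cells carry no number. 4 columns of bulk parental ESCs were not used.

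SDs and Spearman correlations were computed on log2(FPKM + 1) at a mean of 10 FPKM, the trend by lowess (fraction 0.3, statsmodels 0.14.6), correlations after centring on the line. limma 3.58.1 in R 4.3.3 with a trended prior used line means and was tested on simulated data. Named genes are the 12 lowest and highest SDs, the 12 furthest above the trend, the 10 highest between-line shares, the 10 closest pairs, the largest linked group and listed genes; negative pairs, genes of the cells that stand apart and the gene most like Dazl were named after their values were seen. The members and all lists were chosen with earlier results of these data known. A few genes that the rule names are not reported here.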

Additional observations from a re-analysis of the deposited data

Results flagged for a closer look

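Of 65 groups of cells or lines searched for a value far from the rest by Dixon's test, 10 held one. Chance alone gives about 1 in 20 of independent groups not chosen by their values. The search took in 50 genes, some of them named for their spread or between-line share, and some flags fall on the same cell or line. That rate is therefore no measure of these 10. An MR2-1 cell had a mean Spearman correlation of 0.460 with the other cells, and the same cell's FPKM summed to 264923, both lowest in its line. An RM2-1 cell had a mean correlation of 0.555. On the scale of log2(FPKM + 1) of a line's mean, MR1-1 lay below the other 3 lines for Rps3a1 (10.47), Txnip (0.90), Cenpk (2.11) and Pou5f1 (6.00), and above them for Nanog (9.38). RM1-1, the line with the fewest cells, was low in spread, at 1.17 over the 3959 genes used beside differentiated samples and at 1.17 over the 3676 genes of the AdESC cells.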

How the results depend on the processing

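The pooled within-line spread of 1.42 became 1.90 with a pseudocount of 0.1 and 1.12 at a mean filter of 30 FPKM, and ran from 1.38 to 1.46 when each line or cell was left out. The between-line share of 12.4% became 11.6% after upper quartile scaling, and ran from 10.2% to 13.3% with each line or cell left out. The share expected of lines with no difference moves too, to 10.5% beside that 10.2% and 13.6% beside that 13.3%. Share minus expected share ran from -1.46 to -0.31 points over all settings. The median correlation of the 10 named pairs, 0.80, became 0.65 without centring on the line, 0.89 as Pearson's r, 0.69 without the MR2-1 cell that stands apart and 0.62 without both such cells, and ran from 0.71 to 0.85 with each line left out; leaving out these cells, and permuting labels within lines, were chosen after seeing the data. The lower spread of AdESC samples kept its direction throughout, from -0.35 to -0.25 with each sample left out. The count between MR and RM lines was 0, became 1 at a mean filter of 10 FPKM (Dazl), and 0 to 1 with each line left out (Sdc4, without RM2-1). With the line number as a replicate block it was 11, but the lines share only a number: deviations of same-numbered lines correlated at 0.00. The cause of these shifts was not tested. Depth is unknown, so a value of 0 cannot be given a limit.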
